A study of Mus musculus with 6 samples.

Results

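The 52 genes described here encode translation initiation factors (43 genes with symbols starting in Eif and a digit) and translation elongation factors with their modifiers (9 genes with symbols starting in Eef and a digit). They were chosen by the symbol in the array annotation, among protein-coding genes and without the eIF2 alpha kinase genes, and not by any measured value. They are 52 of 19044 protein-coding genes that the annotation named by a single symbol. Where a gene had more than 1 probe set, the brightest on average was used, and among the members this concerned Eif3d alone.

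Whole-transcript microarrays measured RNA of inguinal subcutaneous white fat from male C57BL/6 mice aged 2 months. The KO group was 3 arrays, labelled as biological replicates, of mice with floxed Tfg alleles (TFG f/f) and Adipoq-ERT2Cre, a tamoxifen-activated Cre recombinase driven by the adiponectin promoter, which is active in fat cells. The WT group was 3 such arrays of mice with TFG f/f and no Cre. Both groups were given tamoxifen into the peritoneum on 5 days and were examined 2 weeks afterwards. Whether each array came from a separate animal or a pool is not stated in the labels, so p-values measure the spread between these samples. The genotype label calls the WT group wild type, although the stated design gives it the floxed alleles. The tissue was whole fat, so vessels, stroma and immune cells, in which the adiponectin promoter is not known to be active, contributed RNA. In such a bulk sample, fewer cells of a type and less RNA per cell cannot be told apart.

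Tfg encodes an organizer of the sites where cargo leaves the endoplasmic reticulum. Its log2 signal was 7.99, 8.21 and 8.03 on the KO-labelled arrays, against 7.97, 7.94 and 7.91 on the WT-labelled arrays, so on the deposited scale the targeted transcript was not lower where the label says KO (change 0.14 ± 0.11 SE, limma adjusted p = 0.345, exact 2-sided permutation p = 0.1, the smallest that 3 against 3 arrays allow). The direction depended on the scaling. After centring on the housekeeping genes, where 80.4% of all protein-coding genes were called lower, Tfg was -1.09 (limma adjusted p = 0.0167), a call of lower. By rank within each array Tfg was -2.82 percentile points (limma adjusted p = 0.209). Which exons its probe set reads is unknown here too, so Tfg does not settle whether the labels are right, and the arrays are called KO-labelled and WT-labelled throughout. The median signal of all 65956 probe sets was 6.47 to 6.76 on the KO-labelled arrays and 6.96 to 7.02 on the WT-labelled arrays. Over all probe sets the change had a median of -0.37. For 12 housekeeping genes the median change was 1.14, but they did not move together. Their changes ran from -0.28 (Tfrc) to 4.83 (B2m), with 6 called higher and 0 lower, and they include the ribosomal protein gene Rplp0. For 1073 olfactory receptor genes the median change was -0.82. Over all protein-coding genes 10.7% were called higher and 10.1% lower. Of 12 adipocyte markers 9 rose and 0 fell, and their mean log2 signal was 11.7 to 13.1 on the KO-labelled arrays and 8.61 to 10.1 on the WT-labelled arrays. Of 7 endothelial markers 7 rose, with means of 8.90 to 9.67 on the KO-labelled arrays and 7.10 to 7.39 on the WT-labelled arrays. None of 7 skeletal muscle markers passed, and their mean was 9.15, 11.1 and 6.90 on KO-labelled arrays 1, 2 and 3 and 6.93 to 7.04 on the WT-labelled arrays. Of 7 macrophage markers 3 rose and of 6 fibroblast and progenitor markers 1 rose, with 0 lower in both, while of 4 lymphocyte markers 2 fell and of 5 epithelial markers 1 fell, with 0 higher in both. The part these shifts have in the results below was not tested.

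Translation starts when eIF4F, made of the cap-binding protein eIF4E, the helicase eIF4A and the scaffold eIF4G, brings a messenger RNA to a small ribosomal subunit that carries eIF1, eIF1A, eIF3, eIF5 and the initiator transfer RNA held by eIF2. The subunit scans to the start codon, eIF2 leaves with its GTP spent and is recharged by eIF2B, and eIF5B joins the large subunit. In elongation eEF1A delivers each aminoacyl transfer RNA, the eEF1B subunits recharge eEF1A, and eEF2 moves the ribosome along by a codon. Fat cells adjust initiation to insulin and nutrients through the kinase complex mTORC1, which phosphorylates the eIF4E binding proteins. Many messenger RNAs of the translation machinery begin with a terminal oligopyrimidine tract (TOP), a C followed by further C and T bases, through which mTORC1 and the protein Larp1 control their use.

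Most of these genes read higher on the KO-labelled arrays. Of the 52, limma called 31 higher and 0 lower at an adjusted p under 0.05 (Benjamini-Hochberg over all 65956 probe sets). Over all probe sets, 5.32% were called higher and 15.6% lower, and over all protein-coding genes 10.7% higher and 10.1% lower. The members' median change was 0.66 on the log2 scale, beside -0.18 over all protein-coding genes, but it was -0.57 when each array was centred on its housekeeping genes. The 31 rises ran from 1.38-fold to 4.96-fold. In 38 members all KO-labelled values lay above all WT-labelled values, in 2 all lay below and in 12 the groups overlapped, while over all protein-coding genes 23.4% lay all above and 40.9% all below. The adjusted p of the 31 calls lay between 0.0354 and 0.04996, close under the threshold. Without KO replicate 3, WT replicate 1, WT replicate 2 or WT replicate 3, limma called 0 members and 0 of all 65956 probe sets. In that order, 38, 34, 35 and 33 members had an unadjusted p under 0.05. So did 28697, 23757, 25102 and 21579 of all 65956 probe sets. With the same arrays left out, the smallest adjusted p among the members was 0.0624, 0.0997, 0.0824 and 0.114.

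**Figure D1:**
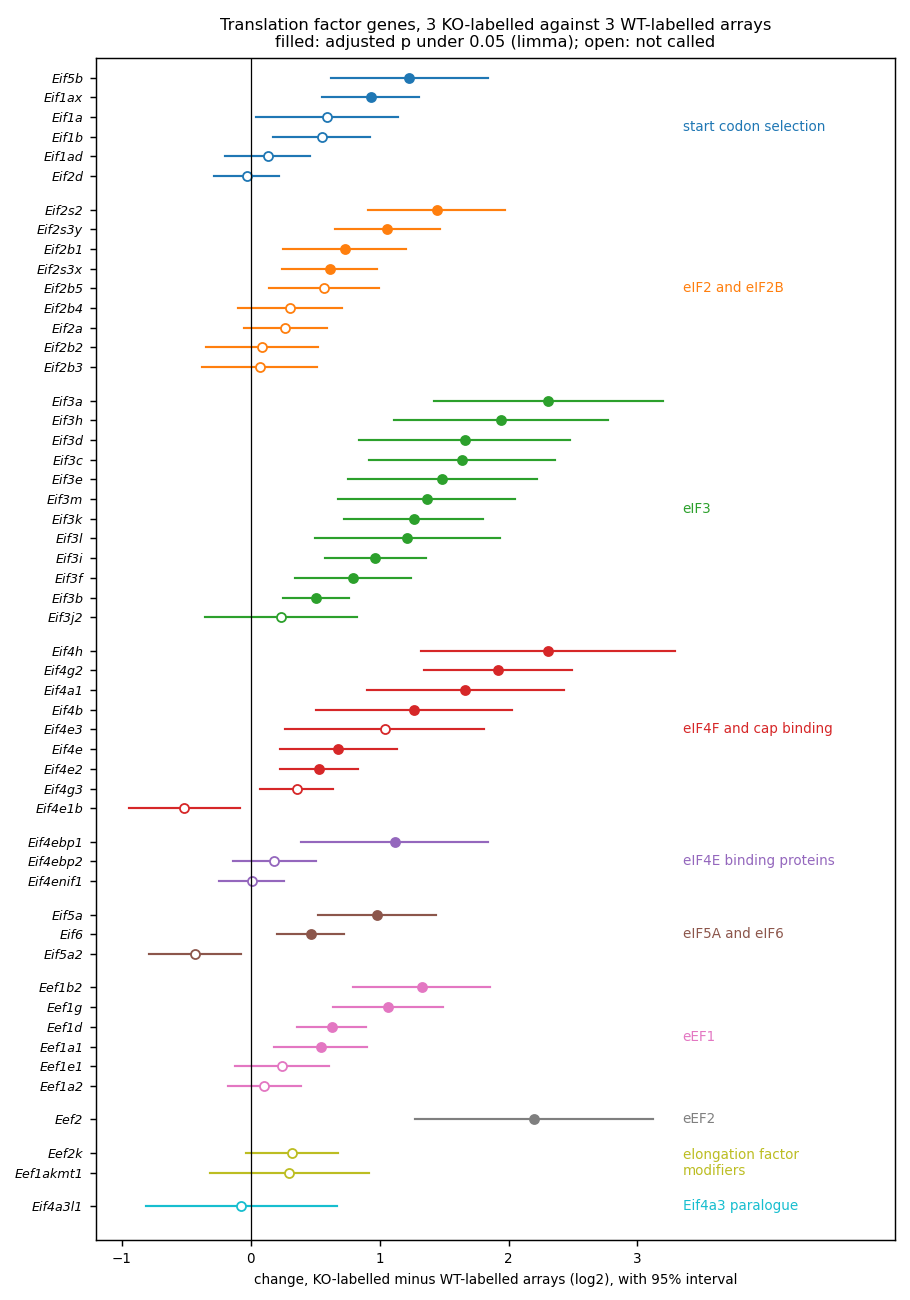
Change of each of the 52 genes (KO-labelled minus WT-labelled arrays, log2, horizontal axis) with its 95% interval from limma, 3 arrays per group, ordered within role groups; filled points passed an adjusted p under 0.05. 11 of 12 eIF3 genes are filled, and Eif4e1b and Eif5a2 lie farthest left, at -0.51 and -0.43; centred on the housekeeping genes, of these Eef2, Eif3a and Eif4h alone remain called higher.

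The 3 KO-labelled arrays did not read alike. Array KO 2 gave the highest of the KO-labelled values in 44 of 52 members, and in 29 of the 31 called members. The median difference of the members from their WT-labelled mean was 0.53 on KO 1, 1.05 on KO 2 and 0.62 on KO 3. Over all probe sets the same median was -0.25, -0.55 and -0.27, so KO 2 was the array with the highest members and the lowest bulk of signals. The members stood above their WT-labelled mean in 44, 48 and 46 of 52 genes on the 3 arrays. Without KO 2 limma still called 27 members, all of them among the 31, with a median change of 0.53. The muscle marker means were 9.15, 11.1 and 6.90 on KO 1, KO 2 and KO 3, beside members' median differences of 0.53, 1.05 and 0.62. The part of muscle RNA in these differences was not tested.

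eIF3, the largest initiation factor, binds the small ribosomal subunit and the incoming messenger RNA. Of its 12 measured genes 11 rose and 0 fell, with a median change of 1.32, beside 10.7% of all protein-coding genes called higher. In those 11 all KO-labelled values lay above the others, as in 23.4% of all protein-coding genes. Eif3a encodes the large scaffold subunit. It read 9.29, 10.67 and 9.63 on the KO-labelled arrays, against 7.52, 7.78 and 7.36 on the WT-labelled arrays. It had the largest change of all members, 2.31 ± 0.36 (SE), or 4.96-fold (adjusted p = 0.0354). Eif3h, a subunit of the non-catalytic scaffold core, read 10.13, 11.49 and 10.57 on the KO-labelled arrays, against 8.73, 8.86 and 8.77 on the WT-labelled arrays. The WT-labelled values of Eif3h lay within 0.13 of each other, while the KO-labelled values were spread over 1.36, and its change was 1.94 ± 0.34 (SE, adjusted p = 0.0354). Eif3c, which encodes the partner of Eif3a in the core, read 8.97, 10.08 and 9.17 on the KO-labelled arrays, against 7.79, 7.84 and 7.67 on the WT-labelled arrays, a rise of 3.12-fold.

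The Eif3e subunit gene read 9.42, 10.39 and 9.75 on the KO-labelled arrays, against 7.96, 8.60 and 8.54 on the WT-labelled arrays (2.80-fold, adjusted p = 0.0366). Eif3d encodes a subunit that can itself bind the cap of some messenger RNAs. Its brighter probe set read 8.67, 9.87 and 8.74 on the KO-labelled arrays, against 7.31, 7.59 and 7.40 on the WT-labelled arrays (3.16-fold, adjusted p = 0.0367). The second probe set of Eif3d disagreed with it, at 4.31, 3.72 and 4.03 on the KO-labelled arrays and 4.79, 4.35 and 4.72 on the WT-labelled arrays, a change of -0.60 that did not pass (adjusted p = 0.0701). That dimmer probe set is not the one used for the gene. Eif3m rose 2.58-fold, Eif3k 2.40-fold, Eif3l 2.32-fold, and Eif3i 1.95-fold. Eif3f read 8.21, 8.78 and 8.24 on the KO-labelled arrays, against 7.57, 7.74 and 7.54 on the WT-labelled arrays (1.73-fold, adjusted p = 0.0407). Eif3b, the scaffold for the subunits near the messenger RNA channel, had the smallest of the eIF3 rises at 1.42-fold. It read 7.33, 7.31 and 7.22 on the KO-labelled arrays, against 6.78, 6.71 and 6.85 on the WT-labelled arrays, so its groups were tight and well apart (0.51 ± 0.11 SE, adjusted p = 0.0375). Eif3j2 was the eIF3 gene that did not pass (change 0.23 ± 0.24 SE, adjusted p = 0.447). It encodes the loosely bound j subunit and has a close copy, Eif3j1, so its probe set may read both.

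Of 9 genes of the cap-binding complex and its helpers 6 rose and 0 fell, with a median change of 1.04. In 8 of the 9 all KO-labelled values lay above the others and in 1, Eif4e1b, all lay below. Over all protein-coding genes 10.7% were called higher, while 23.4% lay all above and 40.9% all below. Eif4g2 encodes a relative of eIF4G without the binding site for eIF4E, which serves cap-independent initiation. It read 10.02, 10.74 and 10.20 on the KO-labelled arrays, against 8.31, 8.70 and 8.19 on the WT-labelled arrays. Its change was 1.92 ± 0.24 (SE), or 3.78-fold (adjusted p = 0.0354). Eif4h, which stimulates the helicase, read 9.64, 11.14 and 9.99 on the KO-labelled arrays, against 7.97, 8.23 and 7.65 on the WT-labelled arrays, a change of 2.31 ± 0.40 (SE, 4.95-fold, adjusted p = 0.0354). In both genes KO 2 was the highest array and no values overlapped. Eif4a1, the helicase gene, rose 3.17-fold (adjusted p = 0.0359). Eif4b, another helicase cofactor, read 8.87, 10.11 and 9.39 on the KO-labelled arrays, against 8.06, 8.26 and 8.25 on the WT-labelled arrays (2.41-fold, adjusted p = 0.0430).

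Eif4e, the gene of the main cap-binding protein, read 7.66, 8.29 and 7.89 on the KO-labelled arrays, against 7.22, 7.40 and 7.18 on the WT-labelled arrays. Its rise of 1.60-fold (0.68 ± 0.19 SE) had the highest adjusted p of the 31 calls (adjusted p = 0.04996). Eif4e2, which encodes a cap-binding protein that mostly represses translation, rose 1.45-fold (adjusted p = 0.0405). The WT-labelled means of Eif4e and Eif4e2, 7.27 and 6.81, lay below the olfactory receptor median of 7.47, so a signal above background there is not shown. Eif4e3 was 1.04 ± 0.32 higher and the scaffold gene Eif4g3 0.36 ± 0.12 higher (SE), and neither passed (adjusted p = 0.0582 and 0.0647). Eif4e1b, an eIF4E relative known from oocytes, ran the other way. It read 6.91, 6.54 and 7.16 on the KO-labelled arrays, against 7.42, 7.36 and 7.37 on the WT-labelled arrays, so all KO-labelled values lay below the others. The change of -0.51 ± 0.18 (SE) did not pass (adjusted p = 0.0727). Its WT-labelled mean of 7.38 lay below the median of the olfactory receptor genes there, 7.47, whose own median change was -0.82.

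The eIF4E binding proteins hold eIF4E away from eIF4G until mTORC1 phosphorylates them. Eif4ebp1, the form abundant in fat, read 9.88, 10.89 and 9.88 on the KO-labelled arrays, against 9.03, 9.27 and 9.00 on the WT-labelled arrays. Its change was 1.12 ± 0.30 (SE), or 2.17-fold (adjusted p = 0.0480), and -0.11 after centring on the housekeeping genes. Eif4ebp2 overlapped between the groups, at 8.27, 8.39 and 8.25 on the KO-labelled arrays and 8.04, 8.00 and 8.32 on the WT-labelled arrays (adjusted p = 0.287). Eif4enif1, which encodes a transporter of eIF4E into the nucleus, was 7.69, 7.57 and 7.59 on the KO-labelled arrays and 7.65, 7.56 and 7.61 on the WT-labelled arrays. The 95% interval of its change ran from -0.24 to 0.26.

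**Figure D2:**
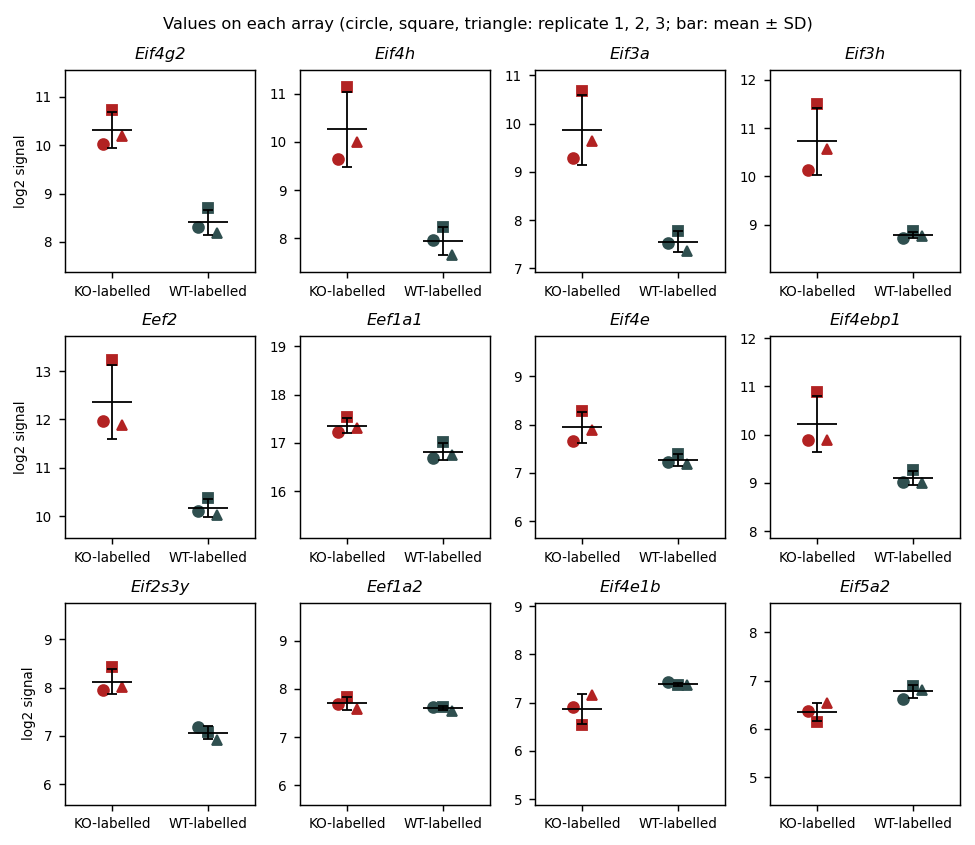
Log2 signal (vertical axes, each spanning the same range) of 12 genes on the 3 KO-labelled arrays (red, left) and 3 WT-labelled arrays (dark, right), with marker shapes for replicates and bars for mean ± SD. Replicate 2 (square) is the highest KO-labelled point for Eef2 at 13.24 and the lowest for Eif4e1b at 6.54.

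Of 6 genes for factors that choose the start codon or join the subunits 2 rose and 0 fell, with a median change of 0.57. Among all protein-coding genes 10.7% were called higher. Eif5b, which encodes the GTPase that joins the ribosomal subunits, read 8.89, 9.81 and 9.08 on the KO-labelled arrays, against 7.97, 8.11 and 8.01 on the WT-labelled arrays (2.35-fold, adjusted p = 0.0367). Eif1ax, the X-linked eIF1A gene, read 8.12, 8.38 and 7.87 on the KO-labelled arrays, against 7.18, 7.23 and 7.17 on the WT-labelled arrays (1.91-fold, adjusted p = 0.0354). The relatives Eif1a and Eif1b were 0.59 and 0.55 higher, with all KO-labelled values above the others, and did not pass (adjusted p = 0.0893 and 0.0515). Eif1ad, at 0.13, and Eif2d, at -0.03, overlapped between the groups. Eif2d encodes a factor that can bring the initiator transfer RNA without eIF2, and the 95% interval of its change ran from -0.28 to 0.22.

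Of 9 genes of eIF2, its exchange factor eIF2B and the alternative factor Eif2a, 4 rose and 0 fell, with a median change of 0.57. The share called higher over all protein-coding genes was 10.7%. Eif2s2, the beta subunit of eIF2, read 9.46, 10.26 and 9.80 on the KO-labelled arrays, against 8.27, 8.50 and 8.42 on the WT-labelled arrays (1.44 ± 0.22 SE, 2.72-fold, adjusted p = 0.0354). The gamma subunit has copies on both sex chromosomes. Eif2s3y, on the Y chromosome, read 7.95, 8.42 and 8.01 on the KO-labelled arrays, against 7.19, 7.09 and 6.92 on the WT-labelled arrays (2.08-fold, adjusted p = 0.0354). Eif2s3x, on the X chromosome, read 7.73, 8.12 and 7.71 on the KO-labelled arrays, against 7.15, 7.26 and 7.31 on the WT-labelled arrays (1.53-fold, adjusted p = 0.0427). All samples were from males, and how far the 2 probe sets read each other's transcript was not tested. The WT-labelled means of Eif2s3y and Eif2s3x, 7.07 and 7.24, lay below the olfactory receptor median of 7.47. A signal above background there is thus not shown.

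Among the eIF2B genes, whose complex recharges eIF2 and is the target of stress signalling through eIF2 phosphorylation, 1 of 5 passed. Called higher were 10.7% of all protein-coding genes, and 23.2% of those kept without dim probe sets. Eif2b1, the regulatory alpha subunit, rose 1.66-fold (adjusted p = 0.0484). Eif2b5, the catalytic epsilon subunit, was 0.57 ± 0.17 higher (SE) without overlap but did not pass (adjusted p = 0.0596). Eif2b4, Eif2b2 and Eif2b3 were 0.31, 0.09 and 0.07 higher with overlapping groups. Eif2a, whose protein is distinct from the eIF2 alpha subunit despite its symbol, was 0.27 ± 0.13 higher (SE, adjusted p = 0.148).

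Eif5a and Eif5a2 encode forms of eIF5A, the factor with the amino acid hypusine that relieves stalled ribosomes. Eif5a read 8.98, 9.54 and 9.16 on the KO-labelled arrays, against 8.35, 8.37 and 8.03 on the WT-labelled arrays (1.97-fold, adjusted p = 0.0360). Eif5a2, which most tissues hardly use, read 6.37, 6.15 and 6.53 on the KO-labelled arrays, against 6.63, 6.90 and 6.81 on the WT-labelled arrays. Its change of -0.43 ± 0.15 (SE) did not pass (adjusted p = 0.0720). All KO-labelled values lay below the others, as in 40.9% of all protein-coding genes. Its WT-labelled mean of 6.78 lay below the median of the olfactory receptor genes there, 7.47, whose own median change was -0.82. Eif6, which keeps the ribosomal subunits apart and promotes fat synthesis under insulin in the mouse, read 7.67, 7.73 and 7.81 on the KO-labelled arrays, against 7.33, 7.27 and 7.21 on the WT-labelled arrays. It had the smallest of the 31 rises, 1.38-fold (0.47 ± 0.11 SE, adjusted p = 0.0398).

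In elongation, 4 of 6 eEF1 genes rose, as did Eef2, and 0 fell, beside 10.7% of all protein-coding genes called higher. Eef2, the translocase gene, read 11.97, 13.24 and 11.88 on the KO-labelled arrays, against 10.10, 10.37 and 10.02 on the WT-labelled arrays. The change was 2.20 ± 0.38 (SE), or 4.59-fold (adjusted p = 0.0354), and it was 0.97 after centring on the housekeeping genes (adjusted p = 0.0324). Eef2k, which encodes the kinase that stops eEF2, read 7.39, 7.79 and 7.51 on the KO-labelled arrays, against 7.38, 7.17 and 7.18 on the WT-labelled arrays. It was 0.32 ± 0.15 higher (SE) and did not pass (adjusted p = 0.132).

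Eef1a1, the main eEF1A gene, read 17.23, 17.54 and 17.31 on the KO-labelled arrays, against 16.69, 17.02 and 16.74 on the WT-labelled arrays, a rise of 0.54 ± 0.15 (SE, 1.46-fold, adjusted p = 0.0497). Among other settings, it did not pass with a mean-variance trend and robust variances (adjusted p = 0.210). Nor did it pass with the replicate number as a block (adjusted p = 0.0508) or without KO replicate 1 (adjusted p = 0.0568). With quantile normalization it passed and its change was 1.69. The highest value in the deposited table was 19.93, and no member reached it. Eef1a2 encodes the eEF1A form of muscle and neurons and did not pass. It read 7.69, 7.84 and 7.58 on the KO-labelled arrays and 7.62, 7.62 and 7.55 on the WT-labelled arrays (adjusted p = 0.469). Among its KO-labelled values KO 2 was the highest and KO 3 the lowest, as for the muscle marker means of 11.1 and 6.90, and the part of muscle RNA in them was not tested. The exchange factor subunits Eef1b2, Eef1g and Eef1d rose 2.51-fold, 2.09-fold and 1.55-fold (adjusted p = 0.0354 each). Eef1b2 read 8.79, 9.33 and 9.14 on the KO-labelled arrays, against 7.40, 7.91 and 7.97 on the WT-labelled arrays. Eef1d had tight groups, at 8.49, 8.61 and 8.57 on the KO-labelled arrays and 7.96, 8.00 and 7.82 on the WT-labelled arrays. Eef1g read 10.71, 11.21 and 10.76 on the KO-labelled arrays, against 9.69, 9.82 and 9.98 on the WT-labelled arrays. Eef1e1, whose protein belongs to the complex of aminoacyl transfer RNA synthetases, overlapped between the groups (change 0.24 ± 0.15 SE, adjusted p = 0.223). The methyltransferase gene Eef1akmt1 overlapped too, at a change of 0.30 ± 0.25 (SE). Of 4 other elongation factor methyltransferase genes that the array lists under older symbols, 0 passed, with changes from -0.24 to 0.01. The last member, Eif4a3l1, is a relative of the helicase gene Eif4a3. It read 7.58, 6.53 and 7.58 on the KO-labelled arrays and 7.19, 7.32 and 7.40 on the WT-labelled arrays, and did not pass (adjusted p = 0.856).

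The members listed as TOP messenger RNAs, from textbook knowledge, were Eef1a1, Eef1b2, Eef1d, Eef1g, Eef2, Eif3e, Eif3f, Eif3h and Eif4b. All 9 rose, with a median change of 1.27, beside 10.7% of all protein-coding genes called higher. The list was written with earlier results of these data known, so this count is not independent of them. RefSeq (GRCm38.p6) gave start regions for 38 of the 52 genes. The 25 bases before and the 25 after the annotated start are shown for 6 genes that rose, on the strand of the gene and 5′ to 3′. The longest run of a C followed by at least 6 C or T bases is in capitals. All 6 shown have such a run, while the risen Eif3a, Eif4h and Eif4a1 have none. The genes shown include the known TOP genes Eef2, Eef1a1 and Eif3f, the pair Eif2s3x and Eif2s3y, and Eif3l.
Eef2, chr10:81176606-81176655, plus strand: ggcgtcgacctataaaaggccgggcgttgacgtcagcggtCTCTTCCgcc
Eef1a1, chr9:78481700-78481749, minus strand: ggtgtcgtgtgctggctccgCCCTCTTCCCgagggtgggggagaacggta
Eif3f, chr7:108934390-108934439, plus strand: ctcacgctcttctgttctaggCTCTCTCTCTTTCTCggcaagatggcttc
Eif3l, chr15:79075198-79075247, plus strand: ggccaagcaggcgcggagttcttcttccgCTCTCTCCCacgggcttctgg
Eif2s3x, chrX:94212627-94212676, minus strand: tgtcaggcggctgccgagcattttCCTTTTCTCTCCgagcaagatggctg
Eif2s3y, chrY:1010570-1010619, plus strand: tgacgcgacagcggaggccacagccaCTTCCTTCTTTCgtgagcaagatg
The run is 15 bases in Eif3f and 12 in each of Eif2s3x and Eif2s3y. It was counted anywhere in the window and need not begin the messenger RNA, so the shares below are not shares of TOP starts. Counted from the annotated start, its first base lay at 15 in Eef2, 10 in Eif4b and 4 in Eif3l, and at -5 in Eef1a1. A gene with several annotated starts was counted if any of them had a run, as in Eif4e. On the sense strand of this window, such a run was present in 16 of the 38 members (42.1%), and in 4534 of 17491 protein-coding genes of the table (25.9%). Among members it was present in 10 of 23 that rose and 6 of 15 that were not called. Of the listed TOP genes, Eef1a1, Eef2, Eif3f and Eif4b had such a run and Eef1b2 had none. No start region was given for Eef1d, Eef1g, Eif3e and Eif3h. The annotated start need not be the one used in fat.

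The letters CACGTG, a palindrome read alike on both strands and the core of the E-box bound by Myc and by Clock proteins, were found in the 300-base start region (250 bases before and 50 after the start) of 11 of 38 members (28.9%), against 1559 of 17491 protein-coding genes (8.91%). They were present in 8 of 23 members that rose and 3 of 15 that were not called. The 250 bases before and the 25 after the start of Eef2 and Eif4h, among the largest rises, are given with CACGTG in capitals.
Eef2, chr10:81176381-81176655, plus strand: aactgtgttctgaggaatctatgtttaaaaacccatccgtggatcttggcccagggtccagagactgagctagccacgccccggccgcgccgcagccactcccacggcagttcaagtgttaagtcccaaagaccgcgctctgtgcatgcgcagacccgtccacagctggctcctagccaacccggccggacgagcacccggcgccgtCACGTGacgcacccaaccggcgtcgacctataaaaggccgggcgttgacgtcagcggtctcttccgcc
Eif4h, chr5:134639385-134639659, minus strand: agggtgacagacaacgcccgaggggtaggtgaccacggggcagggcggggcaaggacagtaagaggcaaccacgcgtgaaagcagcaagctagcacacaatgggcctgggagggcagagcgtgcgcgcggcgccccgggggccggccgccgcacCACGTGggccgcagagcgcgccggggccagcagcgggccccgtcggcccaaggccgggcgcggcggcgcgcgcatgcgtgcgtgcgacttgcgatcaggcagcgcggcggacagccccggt
The first base of CACGTG lies 43 bases before the start in Eef2 and 96 bases before it in Eif4h.

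Other genes of the pathway were counted beside the members and beside the 10.7% called higher over all protein-coding genes. Of 33 cytosolic ribosomal protein genes 21 rose and 0 fell, with a median change of 1.11. Of 6 termination and recycling genes 3 rose: the release factor genes Etf1 and Gspt1 (1.11 ± 0.29 and 0.91 ± 0.23, SE) and Abce1, which splits terminated ribosomes (1.33 ± 0.29, SE). Of 5 genes of the poly(A) binding protein and its partners 2 rose. The poly(A) binding protein gene Pabpc1, itself a TOP messenger RNA, read 9.77, 10.69 and 10.13 on the KO-labelled arrays, against 7.76, 8.13 and 8.40 on the WT-labelled arrays, a change of 2.10 ± 0.28 (SE, adjusted p = 0.0354). Paip1, its activating partner, rose by 0.80 ± 0.16 (SE). The WT-labelled means of Gspt1 and Paip1, 7.04 and 6.86, lay below the olfactory receptor median of 7.47, so a signal above background there is not shown. Of 3 further TOP genes measured, Pabpc1 and Npm1 rose (2.10 and 1.81), while Tpt1 stood at 0.04 ± 0.10 (SE, adjusted p = 0.755).

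Beside 10.7% called higher over all protein-coding genes, 4 of 11 genes of mTORC1 and cap control rose and 0 fell. Their list had a median change of 0.36. The 4 that rose are given next. They were Mknk2, which encodes a kinase of eIF4E (2.39 ± 0.55, SE), Larp1, which binds TOP messenger RNAs (1.27 ± 0.28), the kinase gene Mtor (0.91 ± 0.20) and Pdcd4, whose protein blocks eIF4A (0.75 ± 0.18). The WT-labelled mean of Mtor, 7.02, lay below the olfactory receptor median of 7.47. The mTORC1 partner gene Rptor, at 0.09, did not pass. Of 9 genes of the integrated stress response 2 rose, beside 10.7% of all protein-coding genes called higher. Atf4, its central transcription factor, read 7.29, 7.53 and 7.25 on the KO-labelled arrays, against 6.35, 5.96 and 5.95 on the WT-labelled arrays (1.27 ± 0.16 SE, adjusted p = 0.0354). The WT-labelled mean of Atf4, 6.09, lay below the olfactory receptor median there, 7.47, so a signal above background on those arrays is not shown. Ppp1r15b, which encodes a subunit of the phosphatase that restores eIF2, rose by 1.39 ± 0.25 (SE). The Atf4 targets Trib3 and Chac1 stood at -0.05 and 0.06 and Asns at 0.74, and none passed (adjusted p = 0.717, 0.796 and 0.0601). Of the 4 eIF2 alpha kinase genes 0 passed, with changes from -0.09 for Eif2ak3 to 0.35 for Eif2ak1. Of 10 mitochondrial translation factor genes 0 passed, with a median change of 0.14. Of these, Tufm, the mitochondrial counterpart of eEF1A, was 0.94 ± 0.30 higher (SE, adjusted p = 0.0647) and Mrrf was -0.42 ± 0.24 (SE, adjusted p = 0.189).

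**Figure D3:**
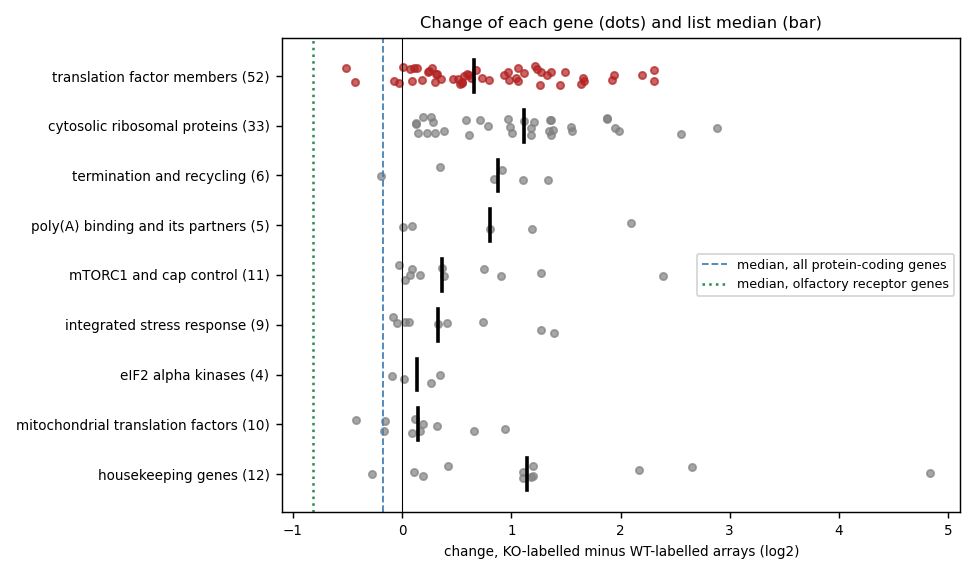
Change of each gene (dots, KO-labelled minus WT-labelled arrays, log2, horizontal axis) in the 52 members (red, top) and in other lists (grey), with list medians as bars and the number of genes in brackets. The members' median of 0.66 lies between the 1.11 of the ribosomal protein genes and the 0.14 of the mitochondrial translation factor genes; the housekeeping median is 1.14.

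Across the 52 members the mean log2 signal over the 6 arrays and the change correlated at a Pearson r of 0.43 and a Spearman rho of 0.68, and at an r of 0.72 without Eef1a1, whose signal stands far above the others. The points share the same arrays and are not independent replicates. The mean signal and the change are also computed from the same values, so their correlation is partly built in where the KO-labelled values spread more widely. No such correlation over all protein-coding genes is given. On the WT-labelled arrays 25 members, 10 of them called higher, had a mean below the olfactory receptor median of 7.47. The 10 were Eif1ax, Eif2s3x, Eif2s3y, Eif3b, Eif3d, Eif3i, Eif3l, Eif4e, Eif4e2 and Eif6. No detection calls were used here, so whether the 25 members were detected at all is unknown. Of the 31 called members 16 had a change above the housekeeping median of 1.14.

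To set each gene against the others on its own array, its rank among the 19044 protein-coding genes was expressed as a percentile, which a shift or stretch of a whole array leaves as it is. The median percentile of the members was 87.0, 87.1 and 88.5 on the KO-labelled arrays, against 76.5, 80.6 and 73.4 on the WT-labelled arrays. By rank limma called 17 members higher and 1 lower, beside 14.9% higher and 11.3% lower over all protein-coding genes. Of the 31 members that rose, 14 also rose by rank, with quantile-normalized arrays, and with arrays set to a common median: Eif1ax, Eif2s3x, Eif2s3y, Eif3a, Eif3b, Eif3c, Eif3d, Eif3f, Eif3i, Eif3l, Eif3m, Eif4e, Eif4e2 and Eif6. Of these 14, 8 encode eIF3 subunits. After centring on the housekeeping genes 10 of the 14 were negative, and Eif3a alone was still called higher. On the WT-labelled arrays 10 of the 14 had a mean below the olfactory receptor median of 7.47, so a signal above background there is not shown and the size of their rank change is uncertain. Eif3l and Eif3b are among these 10, with WT-labelled means of 6.29 and 6.78. Eif3l had a mean percentile of 71.0 on the KO-labelled arrays and 15.9 on the WT-labelled arrays (adjusted p = 0.0103). Eif3b had a mean percentile of 68.4 on the KO-labelled arrays and 39.6 on the WT-labelled arrays (adjusted p = 0.00692). Eif4e1b was the member that fell by rank, with means of 53.8 on the KO-labelled arrays and 72.8 on the WT-labelled arrays (adjusted p = 0.0458). Genes near the top, such as Eef1a1 at 99.95 on the KO-labelled and 99.96 on the WT-labelled arrays and Eef2 at 99.5 on the KO-labelled and 98.5 on the WT-labelled arrays, have little room to move by rank and did not pass there.

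The share of all protein-coding genes called was counted under each other setting too, beside the members. With quantile-normalized arrays 30 members rose and 0 fell, beside 12.0% and 1.88% of all protein-coding genes. With a common array median 34 rose and 0 fell, beside 15.3% and 2.31%. After centring on the housekeeping genes 3 members were higher and 16 lower, beside 1.53% and 80.4%, so most genes on the arrays read lower on that scale. Without dim probe sets 32 of 48 members rose, beside 23.2% of the genes kept, of which 13.6% fell. With a mean-variance trend and robust variances 30 members rose, beside 11.3% higher and 12.7% lower. With array weights 35 rose, beside 15.1% higher and 19.4% lower, and with all probe sets of a gene averaged 31 rose, beside 10.7% and 10.1%. With the replicate number as a block 26 rose, beside 8.41% higher and 6.63% lower. Without KO replicate 1 limma called 28 members, beside 10.5% higher and 9.61% lower, and without KO replicate 2 it called 27, beside 9.93% and 6.04%. At an adjusted p under 0.1, 36 members were higher and 2 lower (Eif4e1b and Eif5a2), beside 18.0% and 29.0%. An unadjusted p under 0.05 was reached by 38 members and by 48.4% of all protein-coding genes.

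**Figure D4:**
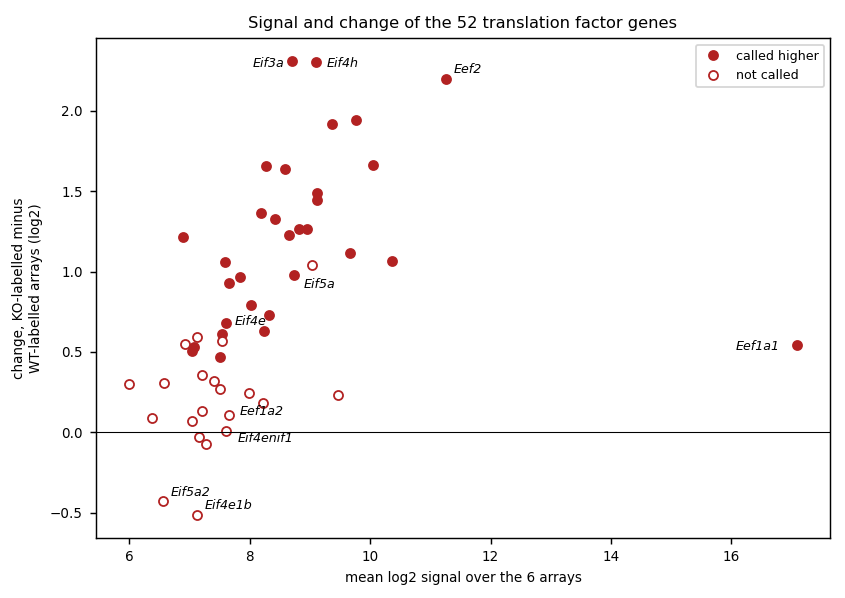
Mean log2 signal over the 6 arrays (horizontal axis) and change (KO-labelled minus WT-labelled arrays, log2, vertical axis) of the 52 genes, filled where called higher. Changes were larger at higher signal (Spearman rho 0.68), with Eef1a1 apart on the right at 0.54, and Eif5a2 and Eif4e1b below 0. Both axes are computed from the same values.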

How the data were processed

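Per the labels' protocols, total RNA was biotinylated with reagents of a GeneChip WT Pico kit. Transcriptome Analysis Console, with no version, is the software that the submitters' processing notes list. The deposited log2 signals per probe set ran from 2.81 to 19.93, and array medians differed, so the arrays do not share 1 distribution. Whether and how the authors corrected background or normalized between arrays is not stated in the labels, and the fold changes depend on it. The columns are the 6 samples, 3 per group, and no other columns of values were left aside. Precision is limited by having 3 arrays a group.

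The array annotation paired 30604 probe sets with 1 symbol, 2146 with several and 33206 with none, and probe sets with several symbols were not named. Of 69 probe sets with an Eif or Eef symbol, 4 were eIF2 alpha kinase genes, 6 had several symbols, 6 were not protein-coding and 53 belonged to the 52 members. Biotypes and start regions came from RefSeq tables of GRCm38.p6. Eif1, Eif2s1, Eif3g, Eif4g1, Eif4a2 and Eif5 were not analysed here.

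All 65956 probe sets were fitted with limma 3.58.1 in R 4.3.3 (lmFit, eBayes without trend, genotype as the only term) on the values as deposited, with Benjamini-Hochberg adjustment and a threshold of 0.05. Python 3.11.15, pandas 2.3.3, numpy 2.4.6, scipy 1.17.1 and matplotlib 3.10.9 made the tables and plots, and the procedure was tested on simulated data. The members and lists were chosen with earlier results of these data known. Any member could be named, and values on every array were given for listed genes and for the member with the smallest p in each direction of each role group, with further members added after their values were seen. Alternatives covered scaling, rank, dim probe sets, the variance model, array weights, the replicate block, left-out arrays and, chosen after seeing the data, housekeeping centring. Of 16 listed housekeeping genes 12 were measured.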

Additional observations from a re-analysis of the deposited data

How the results depend on the processing

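Changes below are log2, KO-labelled minus WT-labelled, or percentile points where named, and the cause of a difference was not tested unless the setting itself shows it. The count of members called higher stayed within 1.5 times of 31 with quantile normalization, a common array median, no dim probe sets, a trend and robust fit, array weights and averaged probe sets. Leaving out 1 array gave 0 to 28 members higher, and 0 without KO replicate 3 or any single WT replicate, where limma called 0 of all 65956 probe sets. The lower count was 2 at an adjusted p under 0.1. The median change was 0.91 with quantile normalization, 0.985 with a common array median and -0.57 after housekeeping centring, which was chosen after seeing the data. By rank 17 members were higher and 1 lower, and after housekeeping centring 3 were higher and 16 lower. Tfg was -2.82 percentile points by rank (limma adjusted p = 0.209). After housekeeping centring, where 80.4% of all protein-coding genes were called lower, it was -1.09 (limma adjusted p = 0.0167). With the replicate number as a block, 26 members were higher and 0 lower, with the median still 0.66, and 25 of them were among the 31. Deviations of same-numbered arrays from their group means correlated at 0.00153, 0.205 and 0.139. KO replicates 2 and 3 correlated best with the WT array of their own number, and KO replicate 1 with WT replicate 3. As 1 of the 3 correlations was not over 0.1, the numbers were not taken as pairs.

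Sign changes under settings other than housekeeping centring were as follows. Eif2d was 0.25 with quantile normalization, 0.30 with a common median and 1.02 points by rank. Eif4a3l1 was 0.22 with quantile normalization and with array weights, 0.26 with a common median and 0.28 without KO replicate 2. Eif2b3 was -0.035 with array weights and -0.11 without KO replicate 2. Leaving out 1 array gave Eif2b2 -0.037 to 0.21, with -0.0017 without KO replicate 2 and the lowest without WT replicate 3. It gave Eif4enif1 -0.027 to 0.033, with the lowest without KO replicate 1 and -0.013 without WT replicate 2. By rank, Eef1a1 was -0.0088, Eef1a2 -1.63, Eef1e1 -1.01, Eif3j2 -1.13, Eif4ebp2 -2.27 and Eif4enif1 -3.49 points. After housekeeping centring 33 members turned negative, 16 of them called higher on the deposited scale, with changes there of up to 1.22 (Eif3l). Among elongation genes Eef1a1 was -0.68, Eef1a2 -1.12, Eef1akmt1 -0.93, Eef1d -0.60, Eef1e1 -0.98, Eef1g -0.16 and Eef2k -0.91. Eif1a was -0.63, Eif1ad -1.09, Eif1ax -0.30 and Eif1b -0.68. Eif2a was -0.96, Eif2b1 -0.50, Eif2b2 -1.14, Eif2b3 -1.16, Eif2b4 -0.92, Eif2b5 -0.66, Eif2s3x -0.61 and Eif2s3y -0.17. Eif3b was -0.72, Eif3f -0.43, Eif3i -0.26, Eif3j2 -0.99 and Eif3l -0.01. Eif4e was -0.55, Eif4e2 -0.69, Eif4e3 -0.19, Eif4ebp1 -0.11, Eif4ebp2 -1.04, Eif4enif1 -1.22 and Eif4g3 -0.87. Eif5a was -0.25 and Eif6 -0.76.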

Other observations

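Of 6 probe sets with an Eif symbol that were not protein-coding, 4 were called higher and 0 lower. Over all probe sets 5.32% were called higher and 15.6% lower. The helicase pseudogene Eif4a-ps4 read 12.24, 13.84 and 12.46 on the KO-labelled arrays, against 9.62, 10.15 and 9.14 on the WT-labelled arrays, a change of 3.21 ± 0.48 (SE, limma adjusted p = 0.0354) that exceeded that of every member. Eif1-ps3, which resembles Eif1, a gene not analysed here, read 10.87, 10.92 and 10.68 on the KO-labelled arrays, against 8.27, 8.87 and 8.46 on the WT-labelled arrays (2.29 ± 0.18 SE, adjusted p = 0.0346). Eif3s6-ps1 and Eif3s6-ps2, pseudogenes of Eif3e, rose by 1.29 and 1.24, beside 1.49 for Eif3e itself. Such probe sets may read the parent transcripts, so their values are uncertain. Eif5al3-ps was 1.48 higher (adjusted p = 0.0592) and the non-coding Eif2c5 was -0.58 (adjusted p = 0.0870), and neither passed. Of 6 probe sets with several symbols, left unnamed, 4 were called higher and 0 lower, with changes from -0.14 to 1.74.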
